A study of Mus musculus with 15 samples.

Results

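The cells described here are the Sox9-GFP+ cells of the mouse pancreas at e15.5 (an embryonic day), the middle of the 3 stages at which such cells were sorted. They were measured on 3 of the 15 arrays of the study and were set against the 3 arrays of Sox9-GFP+ cells at e10.5 and the 3 at postnatal day 23 (p23). Genes were chosen by their stage pattern: among 16882 genes tested, 5157 (30.5%) had their highest mean of the 3 stages at e15.5 and 6332 (37.5%) had their lowest mean there. A gene was called highest at e15.5 when limma called it higher at e15.5 than at e10.5 and also than at p23, each at a Benjamini-Hochberg adjusted p of 0.05, and lowest likewise. By this rule 723 genes were highest and 1772 were lowest.

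All animals had a CD1 background strain, from males carrying an EGFP reporter mated to CD1 females. Sox9-GFP+ cells came from Sox9-EGFP embryos at e10.5 and e15.5 and from Sox9-EGFP pups at p23. Ngn3-GFP+ cells came from Ngn3-EGFP embryos at e15.5, and GFP- cells from the Sox9-EGFP pups at p23. Each group had n = 3 arrays. Only cells of high GFP signal were kept in the GFP+ sorts, and several animals were pooled for each sort, so the p-values measured the spread between pooled sorts and not between animals. The reporter marks cells by GFP protein, which can outlast the transcript of the gene that drives it.

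Sox9 is a transcription factor of the bipotent trunk epithelium of the embryonic pancreas, which gives rise to ducts and, through a brief burst of the transcription factor Neurog3, to the hormone-producing islet cells. At e10.5 the pancreas is a bud of multipotent progenitors. At e15.5 branching, the wave of endocrine differentiation and the onset of acinar enzyme synthesis take place together, and at p23 Sox9 marks the ducts and centroacinar cells. Notch signalling maintains the trunk state and holds back Neurog3.

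Values are log2(intensity + 16), called log2 values below, and differences are on the same scale, where 1 stands for 2-fold and the change of dim genes is understated. The distance of a gene is the difference between its e15.5 mean and the nearer of its e10.5 and p23 means. Errors are standard errors from the limma fit of all 15 arrays with n = 3 arrays per group. Arrays are numbered as in the labels, and values of a group are given in that order. In such sorted bulk samples, more cells of a type and more RNA per cell cannot be told apart.

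The e15.5 arrays carried the transcripts of a pancreatic epithelium. Sox9 stood at 12.14, 12.10 and 12.11 at e15.5, against 12.12, 11.93 and 11.84 at e10.5 and 11.62, 11.94 and 12.10 at p23, so the stages overlapped. Its e15.5 mean exceeded that of e10.5 by 0.15 ± 0.32, which limma did not call (adjusted p = 0.741), and Sox9 was lower in Ngn3-GFP+ cells by -1.29 (adjusted p = 0.00802, limma). Epcam, an adhesion molecule of epithelia, lay between 11.84 and 11.85 on the e15.5 arrays, Cdh1 (E-cadherin) between 12.07 and 12.20 and Krt8 (keratin 8) between 12.71 and 12.82. Ptprc, which marks leukocytes, stood at 6.60, 6.49 and 6.56 at e15.5. Pecam1, which marks endothelium, stood at 6.22, 6.50 and 6.54, and both were under the detection threshold of 6.83. That threshold is the 30th percentile of all intensities, used as a filter, and a value under it does not show absence. Other markers were above it on all 3 e15.5 arrays, namely 11 of 25 leukocyte and 7 of 21 endothelial genes. So were 23 of 26 mesenchyme and 10 of 14 neural crest and glia genes. The embryonic globin gene Hbb-y stood at 9.98 on e15.5 array 1, against 5.93 and 6.35 on arrays 2 and 3. At e10.5 it stood at 10.48, 11.20 and 6.05. Counts given below without the globin-positive arrays leave out e15.5 array 1 and e10.5 arrays 1 and 2, which leaves a lone e10.5 array that is assumed to vary like the other groups.

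The scale of the arrays also moved with the stage. The 25th percentile of intensity over all probe sets was 67.4 to 73.8 on the e15.5 arrays, against 74.8 to 97.6 at e10.5 and 77.8 to 94.6 at p23, while the 75th percentile was 602 to 605 against 564 to 579 and 526 to 553. Dim genes were thus dimmer and bright genes brighter at e15.5. Of the 1772 genes called lowest, 1201 lay below the median of the table (log2 value 7.91) in all 3 stage means, and the part of the array scale in their calls was not tested. The genes that differed by at least 2-fold are therefore given the most room.

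Against the mean of the other stages, limma called 8069 genes (47.8%) at e15.5, 3546 higher (21%) and 4523 lower (26.8%). Against e10.5 alone 12.2% of the genes were higher and 16% lower, and against p23 alone 26.8% were higher and 30.7% lower. The 723 genes called highest in both comparisons were 4.28% of those tested, and the 1772 called lowest were 10.496%. At least 2-fold beyond each other stage lay 131 genes on the high side (0.776%) and 29 on the low side (0.172%). In 2041 genes (12.1%) all e15.5 values lay above every value of the other stages, and in 3292 (19.5%) below. With a distance of 1.00, Lamc1 lay just inside the 2-fold limit and Nkx6-1 just outside it.

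The 2-fold genes were also compared between the stages before and after e15.5. Of the 131 genes highest by 2-fold, 71 did not differ between p23 and e10.5 by the same test, 43 were lower at p23 than at e10.5 and 17 were higher. Between p23 and e10.5, 17.6% of all genes tested were called higher and 23.3% lower, and 9966 of 16882 were not called, so the share not called among the 2-fold genes was near that of all genes. Of the 29 genes lowest by 2-fold, 18 showed no called difference between p23 and e10.5. The 2-fold genes were chosen from these same values, so the next counts describe the choice and are no separate support. All e15.5 values were clear of the other stages in 129 of the 131 and in 28 of the 29, against 5333 of 16882 genes. Among the 9 Sox9-GFP+ arrays, 13 of the 131 genes passed the detection threshold at e15.5 alone, against 18 of 16882 genes.

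The counts of all called genes rested on few arrays, while those of the 2-fold genes were steadier. Leaving out e15.5 array 3 left 319 highest and 332 lowest genes, and leaving out e15.5 array 2 left 358 and 484. Without e10.5 array 3 the counts were 370 and 363, and without e10.5 array 2 they were 409 and 470. Lowest genes numbered 2680 without e10.5 array 1 and 1100 without e15.5 array 1. The 2-fold counts lay between 106 and 148 for the highest and between 22 and 29 for the lowest genes whichever array of the 3 stages was left out.

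**Figure D1:**
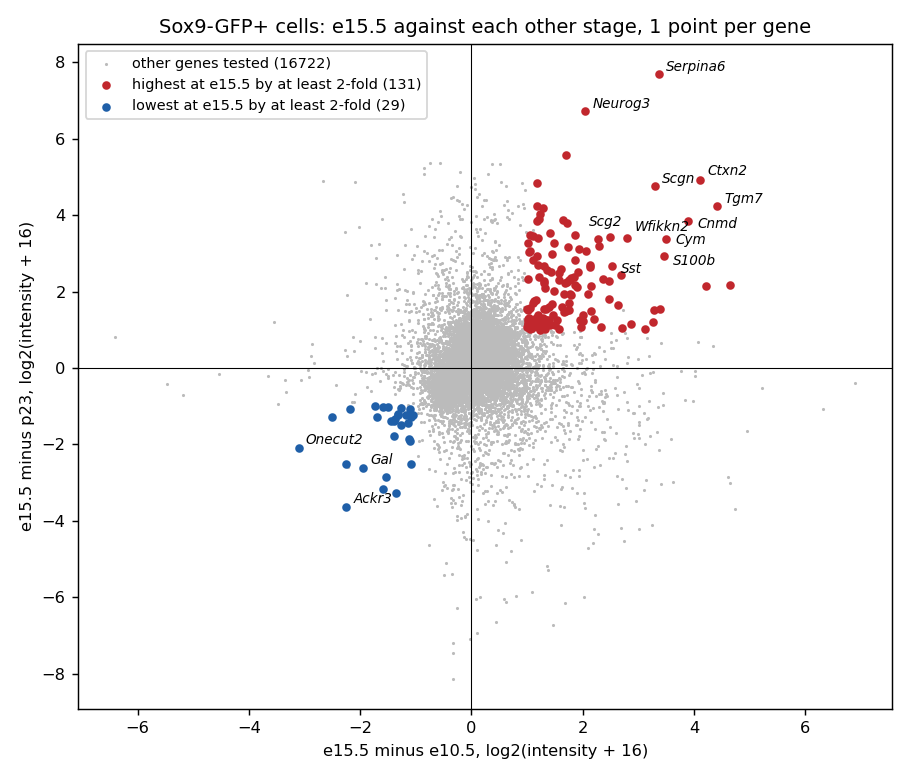
Each point is 1 of 16882 genes, placed by its difference between e15.5 and e10.5 (horizontal) and between e15.5 and p23 (vertical) in Sox9-GFP+ cells, both in log2(intensity + 16). The 131 genes highest by at least 2-fold lie in the upper right corner and the 29 lowest in the lower left, with Serpina6 and Neurog3 farthest from p23 among the genes named in the plot.

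Endocrine progenitor factors had the largest share of members highest at e15.5 of the 34 lists, all chosen with earlier results of these data known. The ranking is therefore given as a description. Of 26 members measured, 9 were highest (34.6%, against 4.28% of all genes) and 1 was lowest. Neurog3, the factor that commits trunk cells to the endocrine fate, stood at 12.12, 11.82 and 11.66 at e15.5, above 10.24, 9.9999 and 9.23 at e10.5 and 5.13, 5.25 and 5.06 at p23. The e15.5 values lay above all others, and the p23 values were under the detection threshold. The difference was 2.04 ± 0.23 from e10.5 (adjusted p = 3.21e-05, limma) and 6.72 from p23 (adjusted p = 9.03e-11, limma). Neurog3 stood at 11.53, 11.75 and 12.21 in Ngn3-GFP+ cells at e15.5, a difference of -0.04 ± 0.23 from the Sox9-GFP+ cells that was not called (adjusted p = 0.911, limma).

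Pax4, a repressor that favours the beta and delta cell fates, stood at 10.17, 9.76 and 9.45 at e15.5, above 8.46, 8.14 and 8.49 at e10.5 and 7.45, 7.31 and 7.10 at p23, with a distance of 1.43. Nhlh1, a neuronal basic helix-loop-helix factor, stood at 9.43, 8.83 and 8.32, above 7.93, 7.56 and 7.56 at e10.5 and 5.08, 4.89 and 5.10 at p23. Of the 9 members highest by stage, it was the one called lower in Ngn3-GFP+ cells (-1.23, adjusted p = 0.0142, limma). Nhlh1 lost its call without e10.5 array 2 or 3 or e15.5 array 1 or 2, and its distance ranged from 0.89 to 1.45 over all alternatives.

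Myt1, a zinc finger factor of endocrine differentiation, stood at 10.46, 10.44 and 10.03 at e15.5, clear of 9.14, 9.09 and 9.36 at e10.5 and 7.28, 6.83 and 6.43 at p23 (distance 1.11). Smarcd2, a chromatin remodelling subunit, was highest by 0.86 and Gadd45a, a stress and growth arrest protein, by 0.61, with the other 3 members between them. Neurod2, a relative of Neurod1, was lowest, with a distance of -0.39.

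Several other members of the list, some of which act after Neurog3, did not share the stage pattern of Neurog3. Neurod1, a direct Neurog3 target, stood at 10.49, 10.60 and 10.28 at e15.5, close to 10.44, 10.29 and 10.42 at e10.5, so these stages overlapped (difference 0.07, adjusted p = 0.87, limma). Insm1, a zinc finger factor of endocrine cells, differed from e10.5 by 0.30 (adjusted p = 0.348, limma). Both were higher than at p23, by 4.81 and 5.08. Sox11 fell from 14.57, 14.45 and 14.35 at e10.5 to 12.27, 11.67 and 11.43 at e15.5 and to 7.30, 6.82 and 6.60 at p23.

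Over the list the median difference was 0.32 from e10.5 and 1.69 from p23, against -0.05 and -0.05 over all genes tested. Between 6 and 9 of its members were highest whichever array was left out, 6 of them without e10.5 array 2, e15.5 array 1 or e15.5 array 2. Without the globin-positive arrays 4 members were called highest. Gadd45a lost its call without e10.5 array 2 or 3 or e15.5 array 1 or 2, and Neurod2 without e10.5 array 2 or 3 or e15.5 array 2 or 3.

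The promoters of Neurog3, Nhlh1 and Cnmd are shown as examples of windows with an E-box match, from the endocrine list (Neurog3, Nhlh1) and from the genes with the largest distances (Cnmd). They are the RefSeq windows of build GRCm38.p6, 250 bases before to 50 after the annotated start, written 5′ to 3′ on the gene's strand, with matches to the E-boxes CAGATG or CAGCTG, on either strand, in capitals. The windows of Myt1, Tgm7, Ctxn2, Ackr3 and Gal, also searched, held 0 matches to these E-boxes. Neurog3 lies at chr10:62132840-62133139 on the + strand with a CAGCTG beginning at position -165, Nhlh1 at chr1:172057547-172057846 on the - strand with a CAGATG at -203, and Cnmd at chr14:79662134-79662433 on the - strand with CATCTG, the reverse complement of CAGATG, at -75.
Neurog3: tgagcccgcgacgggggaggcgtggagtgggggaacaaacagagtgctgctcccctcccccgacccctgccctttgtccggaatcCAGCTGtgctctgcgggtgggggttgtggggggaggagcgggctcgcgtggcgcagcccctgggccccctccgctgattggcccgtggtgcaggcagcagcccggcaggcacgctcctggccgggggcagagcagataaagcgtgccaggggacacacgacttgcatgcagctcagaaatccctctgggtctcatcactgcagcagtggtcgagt
Nhlh1: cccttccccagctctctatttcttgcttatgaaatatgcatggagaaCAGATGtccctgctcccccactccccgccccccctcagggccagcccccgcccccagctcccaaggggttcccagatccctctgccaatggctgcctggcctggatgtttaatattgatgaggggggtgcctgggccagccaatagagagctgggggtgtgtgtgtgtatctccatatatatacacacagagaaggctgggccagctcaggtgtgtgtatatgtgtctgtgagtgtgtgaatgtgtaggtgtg
Cnmd: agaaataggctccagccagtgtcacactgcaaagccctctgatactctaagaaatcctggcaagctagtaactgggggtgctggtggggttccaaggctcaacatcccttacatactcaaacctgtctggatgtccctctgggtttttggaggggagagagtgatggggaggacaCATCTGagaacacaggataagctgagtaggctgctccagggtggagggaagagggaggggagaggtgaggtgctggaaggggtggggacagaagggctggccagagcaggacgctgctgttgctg

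Neurog3 and Neurod1 are known to bind CAGATG and Ptf1a the CAGCTG form. CAGATG occurred on either strand in 18.3% of the 104 promoters found for the 131 genes highest by 2-fold, in 21.7% of 23 promoters of the genes lowest by 2-fold and in 13% of 13292 promoters of all genes tested. CAGCTG occurred in 16.3%, 13% and 16.1% of the same windows. The motifs do not overlap each other, and a match describes these letters in this window only.

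Some hormone, granule and beta cell genes peaked at e15.5, and others were not called against e10.5 or against p23. Of 12 hormone genes, 3 were highest at e15.5 (25%, against 4.28% of all genes) and 0 lowest. Sst (somatostatin, of delta cells) stood at 10.12, 12.15 and 11.79 at e15.5, above 9.13, 8.27 and 9.06 at e10.5 and 8.28, 9.54 and 8.20 at p23, with array 1 lowest of the e15.5 arrays and closest to the others (distance 2.53). Iapp (islet amyloid polypeptide) stood at 11.64, 12.60 and 12.36, clear of 10.58, 10.02 and 10.85 at e10.5 and of 8.83 and less at p23 (distance 1.72). Ins2 (insulin) stood at 11.59, 12.43 and 12.32, above 8.72, 8.38 and 9.07 at e10.5 and 10.65, 10.70 and 10.39 at p23 (distance 1.53). These genes kept their calls in every alternative fit.

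Gcg (glucagon) stood at 12.46, 12.68 and 12.69 at e15.5 against 13.29, 13.20 and 13.46 at e10.5, with all e15.5 values below those of e10.5, although limma did not call the difference of -0.71 (adjusted p = 0.107). Ghrl (ghrelin) overlapped with e10.5, at 11.61, 12.63 and 12.09 against 11.75, 11.36 and 11.87. Pyy (peptide YY) did so as well, and both were higher than at p23, by 3.79 and 3.99. Ppy (pancreatic polypeptide) and Tac1 (tachykinin) were higher than at e10.5, by 1.54 and 2.73, but not called against p23. In Ngn3-GFP+ cells Sst was higher by 1.40 (adjusted p = 0.0278, limma), Iapp by 1.54 (adjusted p = 0.00289, limma) and Ins2 by 0.96 (adjusted p = 0.00882, limma) than in Sox9-GFP+ cells at e15.5. That comparison shares the e15.5 Sox9-GFP+ arrays with the stage comparisons, so its values stand beside theirs as a description.

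Of 15 genes of secretory granules and prohormone processing, 3 were highest at e15.5 (20%, against 4.28% of all genes) and 0 lowest. Higher than at p23 were 14 of the 15, against 26.8% of all genes. Scg2 (secretogranin II) stood at 9.80, 10.78 and 10.41 at e15.5, above 7.89, 7.74 and 7.88 at e10.5 and 6.17, 7.77 and 6.77 at p23 (distance 2.49). Pcsk1, a prohormone convertase, was highest by 1.29 and its inhibitor precursor Pcsk1n by 1.21. Chga and Chgb, the chromogranins, differed from e10.5 by 0.99 (adjusted p = 0.0503, limma, just short of a call) and 1.103 (adjusted p = 0.0592, limma). The granule membrane and carboxypeptidase genes Ptprn2 and Cpe differed from e10.5 by 0.37 and 0.09, neither called.

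Exocytosis and synaptic genes numbered 32, of which 26 were higher than at p23 (26.8% of all genes) but 4 higher than at e10.5 (12.2%). Those highest at e15.5 were Rab3b (1.44) and Rab3c (0.84), small GTPases of secretory vesicles, and Rimbp2 (0.97), a scaffold of release sites, while Unc13c, a vesicle priming factor, was lowest (-0.95). Among 12 genes of beta cell metabolism 3 were highest (25%, against 4.28% of all genes). G6pc2, an islet glucose phosphatase, stood at 7.75, 8.74 and 8.51 at e15.5, above 6.44, 6.53 and 6.75 at e10.5 and 6.57, 5.74 and 5.78 at p23, and reached 12.17, 10.54 and 10.23 in Ngn3-GFP+ cells. Slc30a8, the zinc transporter of insulin granules, stood at 9.73, 11.64 and 11.41 at e15.5 and overlapped with e10.5, where array 3 reached 10.27. Gipr, the incretin receptor, was highest by 1.02. Glp1r, another incretin receptor, and Slc2a2, a glucose transporter, were higher than at e10.5 by 0.86 and 0.77 without peaking at e15.5.

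Several of these calls rested on few arrays. Rimbp2 lost its call without e15.5 array 2, Rab3c without e10.5 or e15.5 array 2 or 3, and Unc13c without any e15.5 array or e10.5 array 2 or 3, which left 1 exocytosis gene highest without e15.5 array 2. Slc30a8 lost its call without e10.5 array 1 or 2 or e15.5 array 2 or 3, and Gipr without the same arrays, with distances from 1.13 to 2.09 and from 0.54 to 1.31 over the alternatives. Without the globin-positive arrays 0 of the beta cell metabolism genes were called, 2 of the granule genes and 3 of the hormone genes. The insulin, glucagon and somatostatin genes were also above the detection threshold in GFP- cells at p23.

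Later islet factors added 2 genes highest at e15.5 among 19, where 4.28% of all genes were highest. Nkx6-1, a factor of the trunk and of beta cells, stood at 10.79, 10.56 and 10.51 at e15.5, above 9.82, 9.45 and 9.60 at e10.5 and 6.89, 6.98 and 8.12 at p23, with a difference of 1.00 ± 0.29 from e10.5 (adjusted p = 0.0221, limma). It lost that call without any of the e15.5 arrays or without e10.5 array 2 or 3, at distances from 0.91 to 1.16. Meis2, a homeobox cofactor, was highest by 0.67, and the repressor Scrt1 was lowest by -0.44. Pdx1, the master factor of the pancreas, stood at 11.48, 11.47 and 11.38 at e15.5 against 11.88, 11.66 and 11.48 at e10.5 (not called) and was higher than at p23 by 1.54. Isl1, an islet LIM-homeobox factor, stood at 10.77, 11.37 and 10.93 at e15.5, under all values of e10.5 (11.69, 11.69 and 11.91).

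**Figure D2:**
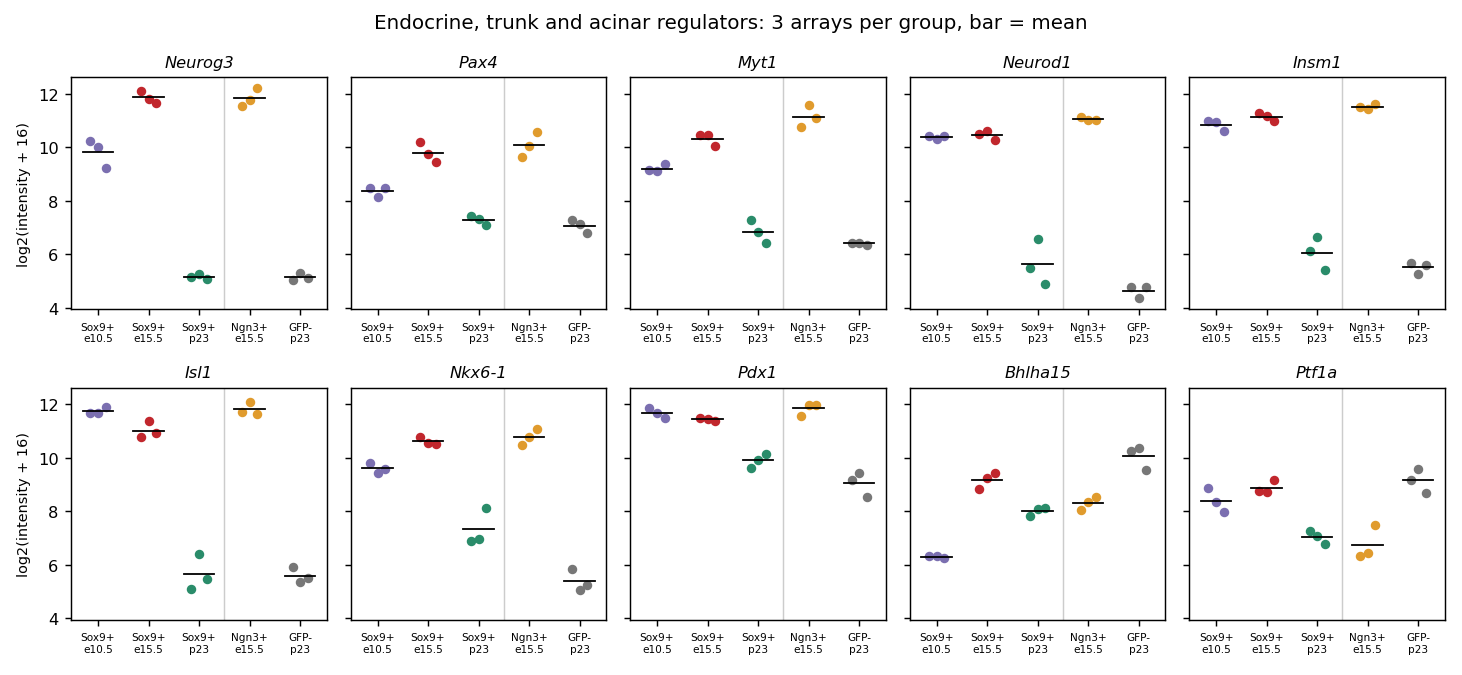
Log2(intensity + 16) of 10 endocrine, trunk and acinar regulators on each of the 3 arrays of the 5 groups, with a bar at the group mean; the Sox9-GFP+ stages stand left of the grey line and the Ngn3-GFP+ and GFP- sorts right of it. Neurog3, Pax4, Myt1, Nkx6-1 and Bhlha15 were highest at e15.5 among the Sox9-GFP+ stages, whereas Neurod1, Insm1 and Pdx1 lay near their e10.5 values.

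The genes with the largest distances on the high side came from several functions. Tgm7, a transglutaminase, stood at 11.29, 10.71 and 10.36 at e15.5 and between 6.13 and 6.57 on all 6 arrays of the other stages, under the detection threshold (distance 4.23). It reached 9.09, 11.26 and 11.44 in Ngn3-GFP+ cells. Ctxn2, a cortexin family membrane protein, stood at 10.41, 11.35 and 11.09, above 7.76, 6.32 and 6.43 at e10.5 and 6.21, 6.21 and 5.68 at p23 (distance 4.11). That no Sox9-GFP+ array of another stage reached these e15.5 values was part of the rule that chose these genes.

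Cnmd (chondromodulin), a secreted inhibitor of vessel growth known from cartilage, stood at 10.94, 11.96 and 12.39 at e15.5 and between 7.52 and 8.13 at the other stages. In Ngn3-GFP+ cells it stood at 8.65, 8.13 and 8.09, lower by -3.47 ± 0.28 (adjusted p = 9.74e-06, limma). Cym (chymosin), a milk-clotting protease of the newborn stomach, stood at 11.10, 11.49 and 11.54, above all values of the other stages (7.54 to 8.21), and was also lower in Ngn3-GFP+ cells, by -2.31 (adjusted p = 0.00158, limma). In Ngn3-GFP+ cells Cym varied, reaching 10.45 on array 3 against 8.57 and 8.19 on the other two, and in GFP- cells both genes lay between 7.63 and 7.87.

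Serpina6, the corticosteroid-binding globulin, stood at 12.77, 12.96 and 13.06 at e15.5, above 9.72, 9.23 and 9.75 at e10.5 and 4.76, 5.03 and 5.93 at p23. It was abundant in Ngn3-GFP+ cells too, at 11.42, 12.70 and 12.60, without a called difference. Scgn (secretagogin), a calcium sensor of islet cells, stood at 10.88, 11.59 and 11.33, against 8.05, 7.97 and 7.91 at e10.5 and 6.43, 6.96 and 6.12 at p23. Unlike the genes before it, Scgn was higher in Ngn3-GFP+ cells, by 0.94 (adjusted p = 0.00786, limma).

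S100b, a calcium-binding protein best known from glia, stood at 9.73, 10.53 and 10.89 at e15.5 against 6.72, 6.98 and 7.06 at e10.5 and 6.95, 7.57 and 7.85 at p23. The glial and neural crest factor Sox10 stood at 7.59, 7.64 and 7.67 at e15.5, against 7.53 to 7.79 on the arrays of the other stages. Of 14 neural crest and glia genes 2 were highest (S100b and the receptor Ret, by 0.84) and 1 lowest (Ngfr, -0.38, lost without any e15.5 array or e10.5 array 2 or 3). Wfikkn2, a secreted protease inhibitor, stood at 10.47, 10.87 and 10.497, above 7.86, 7.91 and 7.67 at e10.5 and 6.95, 7.10 and 7.60 at p23. All 10 genes with the largest distances kept their calls in every alternative fit.

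**Figure D3:**
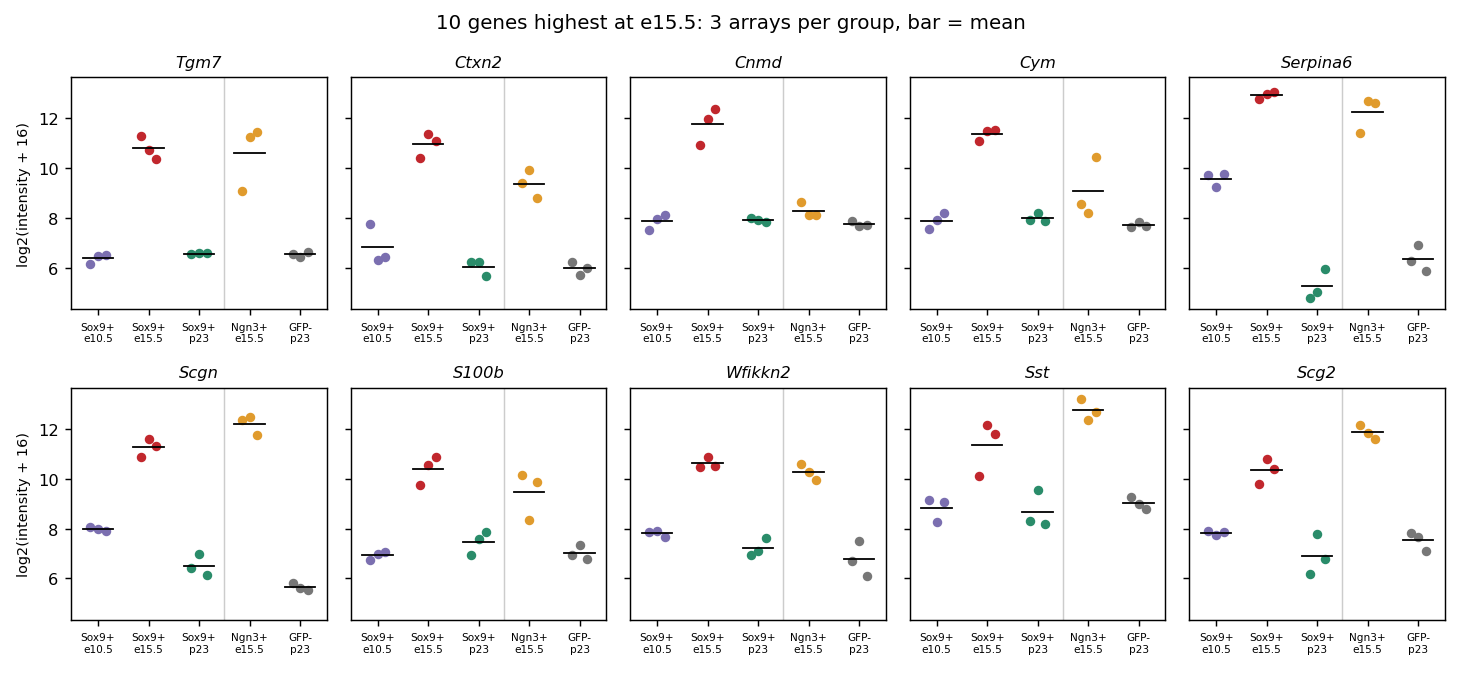
Log2(intensity + 16) of the 10 named genes with the largest distance on the high side, 3 arrays per group with a bar at the mean. The genes were chosen so that the 3 Sox9-GFP+ arrays at e15.5 stand above the Sox9-GFP+ arrays of e10.5 and p23. Cnmd and Cym were lower in Ngn3-GFP+ cells, and Scgn, Sst and Scg2 higher.

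Regulators of the trunk and of multipotent progenitors were highest or lowest at e15.5 about as often as all genes tested. Of 31 measured, 1 was highest (Nkx6-1, 3.23%, against 4.28% of all genes) and 4 were lowest (12.9%, against 10.496%). Onecut2, a homeobox factor of the embryonic liver and pancreas, stood at 6.53, 6.91 and 6.84 at e15.5, below 9.88, 9.73 and 9.99 at e10.5 and 8.77, 9.22 and 8.56 at p23. The differences were -3.10 ± 0.18 (adjusted p = 1.25e-07, limma) and -2.09 (adjusted p = 9.61e-07, limma). Onecut1, its relative, stood at 10.35, 10.36 and 10.40 and did not differ from either stage by the test, and Onecut3 was lowest by -0.46. Zbtb16, a zinc finger repressor, stood at 6.99, 7.07 and 7.004, below 9.92, 8.77 and 8.82 at e10.5 and 7.79, 7.84 and 8.12 at p23. Foxa1, a pioneer factor of endoderm, was lowest by -0.53. Without e15.5 array 3, 2 members of this list were lowest.

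Notch pathway genes showed 1 member highest (3.45%) and 3 lowest (10.3%) among 29, shares near those of all genes tested (4.28% and 10.496%). Nrarp, a feedback inhibitor induced by Notch, stood at 10.01, 10.09 and 10.06 at e15.5, above 9.61, 9.53 and 9.11 at e10.5 and 8.25, 8.58 and 9.16 at p23. It was lower in Ngn3-GFP+ cells by -1.90 (adjusted p = 9.8e-05, limma). Hes1, the Notch target that represses Neurog3, stood at 9.07, 8.97 and 8.89, not called against e10.5 (8.79, 8.45 and 8.27) and lower than at p23 (11.18, 11.25 and 11.72) by 2.41 on the log2 scale. The lowest members were Hes5 (-0.47), Dtx1 (-0.39) and Notch4 (-0.37), the last near the detection threshold. The call of Nrarp was lost without any e15.5 array or without e10.5 array 2 or 3, at distances from 0.49 to 0.97, and 0 Notch members were lowest without e10.5 array 2.

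A few acinar factors and secretory machinery genes peaked at e15.5, while most acinar enzymes were higher again at p23. Of 29 factors and machinery genes, 5 were highest (17.2%, against 4.28% of all genes) and 0 lowest. Of the 29, 18 were higher than at e10.5, 9 higher than at p23 and 9 lower than at p23. Over all genes these last shares were 12.2%, 26.8% and 30.7%. Bhlha15 (Mist1), a factor of secretory cell maturation, stood at 8.85, 9.24 and 9.45 at e15.5, above 6.34, 6.31 and 6.26 at e10.5 and 7.83, 8.10 and 8.13 at p23. Tle6, a Groucho family protein, stood at 9.11, 9.22 and 9.31, above 7.87, 7.25 and 7.64 at e10.5 and 7.49, 7.46 and 7.87 at p23. Rab26, a GTPase of acinar granules, was highest by 0.70, Rbpjl, the acinar partner of Ptf1a, by 0.68 and Spcs3, a signal peptidase subunit, by 0.46. Ptf1a itself stood at 8.78, 8.71 and 9.15, overlapping with e10.5 (8.88, 8.35 and 7.96) and higher than at p23 by 1.85.

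Of 28 acinar digestive enzyme genes 0 were highest and 0 lowest at e15.5. Of the same 28, 20 were higher than at e10.5 (12.2% of all genes) and 26 lower than at p23 (30.7%). Their summed intensity was 3990 to 4950 at e10.5, 31700 to 57500 at e15.5 and 219000 to 251000 at p23. The GFP- cells at p23 held 296000 to 320000, and the part of acinar cells in the sums of the Sox9-GFP+ sorts was not tested. In GFP- cells at p23 Bhlha15 stood at 10.25, 10.39 and 9.56 and Rbpjl at 10.48, 10.32 and 10.03, above all e15.5 values of the same gene. Rab26 lost its call without e15.5 array 3 or p23 array 1 or 3. Rbpjl lost its call without e10.5 array 1 or 2, e15.5 array 2 or 3 or p23 array 2 or 3, at distances from 0.36 to 0.84, and between 3 and 6 list members were highest whichever array was left out, 3 without e15.5 array 3.

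Ductal genes gave 2 highest and 2 lowest members of 39 (5.13% each, against 4.28% and 10.496% of all genes). Of the 39, 25 were lower than at p23 (30.7% of all genes). Against e10.5, 20 were higher (12.2% of all genes) and 3 lower. Wfdc2, a secreted epithelial protease inhibitor, was highest by 0.86 and Krt7, a duct keratin, by 0.71, at 11.52, 11.64 and 11.57 at e15.5. The lowest were Onecut2 and Car4, a membrane carbonic anhydrase, which stood at 6.37, 5.52 and 5.73 at e15.5, under the detection threshold and below 7.53, 7.53 and 7.15 at e10.5 and 8.48, 9.18 and 8.53 at p23. Cftr, the chloride channel of mature ducts, stood at 5.78, 6.32 and 6.77 at e15.5, below 10.25, 9.38 and 10.32 at p23. Wfdc2 lost its call without e10.5 array 3, any e15.5 array or p23 array 1, at distances from 0.57 to 1.03.

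Genes of mitosis and DNA replication were rarely called different between e15.5 and e10.5, and most were lower at p23 than at e15.5. Of 44 genes of mitosis, 43 were higher at e15.5 than at p23 (26.8% of all genes) and 3 higher than at e10.5 (12.2%). Those 3, Hmmr (0.68), Aurkb (0.64) and Ncaph (0.48), were highest (6.82%, against 4.28% of all genes). Mki67, the proliferation marker, stood at 10.87, 10.58 and 10.66 at e15.5, 10.49, 10.46 and 10.59 at e10.5 and 9.73, 9.63 and 9.78 at p23. DNA replication genes gave 2 highest of 36 (5.56%), Rfc4 by 0.48 and Tyms by 0.45, and 32 were higher than at p23. In Ngn3-GFP+ cells 43 of the 44 mitosis genes and 31 of the 36 replication genes were lower than in Sox9-GFP+ cells at e15.5. Over all genes, 18.4% were lower. The 3 mitosis calls against both stages were lost under quantile normalization, without the globin-positive arrays and without any e15.5 array or e10.5 array 2 or 3. The replication calls were lost without e10.5 array 3, e15.5 array 1 or e15.5 array 3.

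Genes of cell cycle exit and G1 control did not follow that pattern, with 10 of 20 higher and 1 lower than at e10.5, and 5 higher and 7 lower than at p23. Over all genes, 12.2% were higher and 16% lower than at e10.5, and 26.8% higher and 30.7% lower than at p23. Of the 20 genes, 3 were highest (15%, against 4.28% of all genes): Rbl1, a retinoblastoma relative (0.73), Gadd45a (0.61) and the cyclin Ccnd3 (0.36). Cdkn2a, a cell cycle inhibitor of ageing cells, was lowest (-0.38) with values near the detection threshold. Ccnd3 (adjusted p = 0.0497 from e10.5, limma) lost its call without any e10.5 or e15.5 array or p23 array 2, in 17 of 24 alternatives in all. Without e10.5 array 2 or 3 or e15.5 array 1 or 2, 1 of these genes was highest. Plagl1, an imprinted growth regulator, stood at 9.95, 9.96 and 10.003 at e15.5, above 8.98, 8.99 and 8.94 at e10.5 and 9.83, 8.74 and 8.54 at p23. It was the member highest among 22 fetal growth and imprinted genes (4.55%, against 4.28% of all genes). Of these 22, 16 were higher than at p23 (26.8% of all genes). Against e10.5, 10 were lower (16% of all genes) and 2 higher. Plagl1 lost its call without e10.5 array 3 or e15.5 array 3. On p23 array 1, at 9.83, it was nearly as high as at e15.5. Without p23 arrays 2 and 3, which leaves a lone p23 array, its distance was 0.14. Those arrays had a larger summed intensity of leukocyte genes (9930 and 8210) than p23 array 1 (6250). All p23 sums exceeded those at e15.5 (2770 to 2830).

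Members of the Wnt and of the Hedgehog, BMP and TGF-beta lists were lowest at e15.5 in a larger share than all genes tested, while the FGF and EGF list was not. Of 41 Wnt genes 8 were lowest (19.5%, against 10.496% of all genes) and 0 highest, and of 40 Hedgehog, BMP and TGF-beta genes 8 were lowest (20%) and 1 highest. Sfrp5, a secreted Wnt antagonist, stood at 6.26, 6.28 and 6.18 at e15.5, under the detection threshold, against 7.64, 7.60 and 7.39 at e10.5 and 6.90, 6.90 and 6.65 at p23. The antagonist Dkk3 was lowest by -0.61 and the receptor Fzd5 by -0.43. Shh, the ligand whose absence marks the pancreatic bud, stood at 7.04, 6.91 and 6.75 at e15.5 against 7.60, 7.56 and 7.66 at e10.5 and 7.74, 7.64 and 7.36 at p23.

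Ihh, a related ligand, was lowest by -0.62, the activin antagonist Fst by -0.53 and the ligand Bmp4 by -0.52. Hhip, the Hedgehog decoy receptor, went the other way, at 8.28, 7.51 and 7.83 at e15.5 against 6.99, 7.12 and 7.12 at e10.5 and 6.18, 6.29 and 6.11 at p23 (distance 0.80), and was lower in Ngn3-GFP+ cells by -1.55 (adjusted p = 0.000136, limma). Under quantile normalization 3 of the Wnt and 3 of the Hedgehog, BMP and TGF-beta genes were lowest, of 396 lowest among 16706 genes. Without e15.5 array 2, 3 Wnt genes were lowest, and without e15.5 array 3, e10.5 array 2 or e10.5 array 3, 4 of the others were. The count over all genes fell as well, from 1772 to 484, 332, 470 and 363 in that order. Of 31 FGF and EGF genes, 2 were lowest (6.45%, namely Spry4, -0.49, and Nrg4, -0.42) and 0 highest, and Spry4 lost its call without e15.5 array 2.

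A chemokine of the guidance list was highest at e15.5 and its scavenging receptor, which is on no list but among the 10 named lowest genes, was lowest. Cxcl12 stood at 10.25, 10.48 and 10.71 at e15.5, above 8.68, 8.26 and 7.90 at e10.5 and 9.01, 8.81 and 9.74 at p23, with differences of 2.20 ± 0.25 (adjusted p = 3.29e-05, limma) and 1.29 (adjusted p = 0.000764, limma). Ackr3, the receptor that removes Cxcl12, stood at 6.73, 7.06 and 7.13 at e15.5, below 9.26, 9.48 and 8.93 at e10.5 and 10.32, 10.63 and 10.87 at p23. Its differences were -2.25 ± 0.27 (adjusted p = 6.5e-05, limma) and -3.63 (adjusted p = 1.82e-07, limma). Cxcr4, the signalling receptor of Cxcl12, stood at 9.95, 9.57 and 9.74 and was called against neither stage.

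Of the 47 guidance and adhesion genes 4 were highest (8.51%, against 4.28% of all genes) and 3 lowest (6.38%, against 10.496%). With Cxcl12 the highest were Plxnb2 (0.44) and Sema6d (0.70), a semaphorin receptor and a semaphorin, and the transcription factor Zeb2 (0.68). Efnb2, an ephrin, stood at 8.91, 9.15 and 9.09 at e15.5, below 10.72, 10.40 and 10.01 at e10.5 and 10.22, 10.27 and 10.29 at p23. Unc5b, a netrin receptor, was lowest by -0.47 and Snai1, a repressor of E-cadherin, by -0.36. Zeb2 lost its call without any e10.5 array, e15.5 array 2 or 3, or p23 array 1 or 3, and Sema6d without e10.5 array 1 or 2 or e15.5 array 2 or 3. The call of Snai1 was lost without any e15.5 array, e10.5 array 2 or 3 or p23 array 1.

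Laminin chains were among the basement membrane genes highest at e15.5. Lamc1 stood at 11.52, 11.47 and 11.54 at e15.5, above 10.37, 10.23 and 10.23 at e10.5 and 10.39, 10.72 and 10.40 at p23. Lamb1, its partner in the trimer, was highest by 0.82, Lama5 by 0.55 and the laminin receptor subunit Itga6 by 0.47. Itgb8, an integrin that activates TGF-beta, stood at 8.11, 8.35 and 8.49 at e15.5, below 9.34, 9.504 and 9.34 at e10.5 and 10.73, 10.86 and 10.88 at p23, and the laminin chain Lamb3 was lowest by -0.30. In all, 4 of 31 genes were highest (12.9%, against 4.28% of all genes) and 2 lowest (6.45%, against 10.496%). Lower than at p23 were 18 of the 31 (30.7% of all genes). The call of Itgb8 was lost on leaving out any 1 of the 9 arrays, at distances from -1.16 to -0.91, that of Itga6 without e10.5 array 3, e15.5 array 2 or 3 or any p23 array, that of Lamb3 without any e10.5 or e15.5 array or p23 array 1, and 3 to 5 members were highest whichever array was left out.

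Genes of the secretory and energy machinery were called highest more often than all genes tested (4.28%), with small distances. Of 30 genes of protein folding and export in the endoplasmic reticulum 6 were highest (20%) and 0 lowest, led by the chaperone cofactor Sdf2l1, at 10.45, 10.85 and 11.13 at e15.5 against 10.07, 9.62 and 9.65 at e10.5 and 9.92, 10.04 and 9.72 at p23. The translocon subunit Sec61b followed at 0.69. Of 33 respiratory chain genes 4 were highest (12.1%) and 0 lowest, with distances from 0.32 for Uqcrc2 to 0.72 for Atp5g1. Leaving out e10.5 array 3 or e15.5 array 3 left 0 respiratory chain and 2 endoplasmic reticulum genes, as did e15.5 array 2 for the latter.

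Car9, a membrane carbonic anhydrase induced by hypoxia, stood at 9.12, 9.75 and 9.90 at e15.5, above 7.37, 7.09 and 7.18 at e10.5 and 6.91, 7.49 and 7.41 at p23. Its distance of 2.32 was the largest among 22 genes of glycolysis and hypoxia, and it was lower in Ngn3-GFP+ cells by -1.80 (adjusted p = 0.000222, limma). Ndrg1, another hypoxia-responsive gene, was highest by 0.82, and Slc16a3, a lactate transporter, was lowest by -0.38. Of these 22 genes 2 were higher than at e10.5 (12.2% of all genes) and 7 lower (16%), so the list as a whole did not go with Car9. The call of Slc16a3 was lost without any e15.5 or p23 array.

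The named genes lowest at e15.5 by 2-fold included secreted factors, receptors and enzymes. Gal, the neuropeptide galanin, stood at 7.08, 6.79 and 6.37 at e15.5, below 9.05, 8.49 and 8.51 at e10.5 and 9.33, 10.01 and 8.74 at p23, and reached 12.15, 11.91 and 11.82 in GFP- cells. Pdgfc, a growth factor for mesenchyme, stood at 8.12, 8.18 and 8.39, below 9.97, 9.81 and 9.68 and 11.33, 11.44 and 11.44. Scd1, a fatty acid desaturase, stood at 5.51, 6.20 and 6.13, under the detection threshold, below 7.48, 7.24 and 7.20 at e10.5 and 9.44, 9.23 and 8.98 at p23.

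Fhl1, a LIM-domain protein, stood at 7.58, 7.91 and 8.07 at e15.5 and between 9.17 and 9.42 on all arrays of the other stages, with a difference of -1.39 ± 0.14 from e10.5 (adjusted p = 9.96e-06, limma). Flrt3, a membrane protein that modulates FGF signalling, was lowest by -1.40. Il17rd, an inhibitor of FGF signalling, stood at 8.33, 8.52 and 8.39 against 9.76, 9.93 and 9.65 at e10.5 and 9.63, 9.76 and 9.88 at p23. Plac8 stood at 7.44, 7.39 and 7.43, below 9.32, 8.86 and 8.40 at e10.5 and 8.09, 9.68 and 8.62 at p23.

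The calls of Il17rd (adjusted p = 0.0444 from e10.5, limma) and Plac8 (adjusted p = 0.0352, limma) were close to the threshold although their Sox9-GFP+ groups did not overlap. Il17rd spread widely in Ngn3-GFP+ cells (7.93, 5.26 and 7.75), as did Plac8 (7.07, 8.27 and 9.30), and the fit pools that spread over all groups. Il17rd lost its call on leaving out any 1 of the 9 arrays and Plac8 on leaving out any array but p23 array 1 or 3, at distances from -1.40 to -1.14 and from -1.45 to -0.67. Without the globin-positive arrays 11 of the 29 genes were among the 24 then lowest by 2-fold, and 90 of the 131 were among the 133 then highest.

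**Figure D4:**
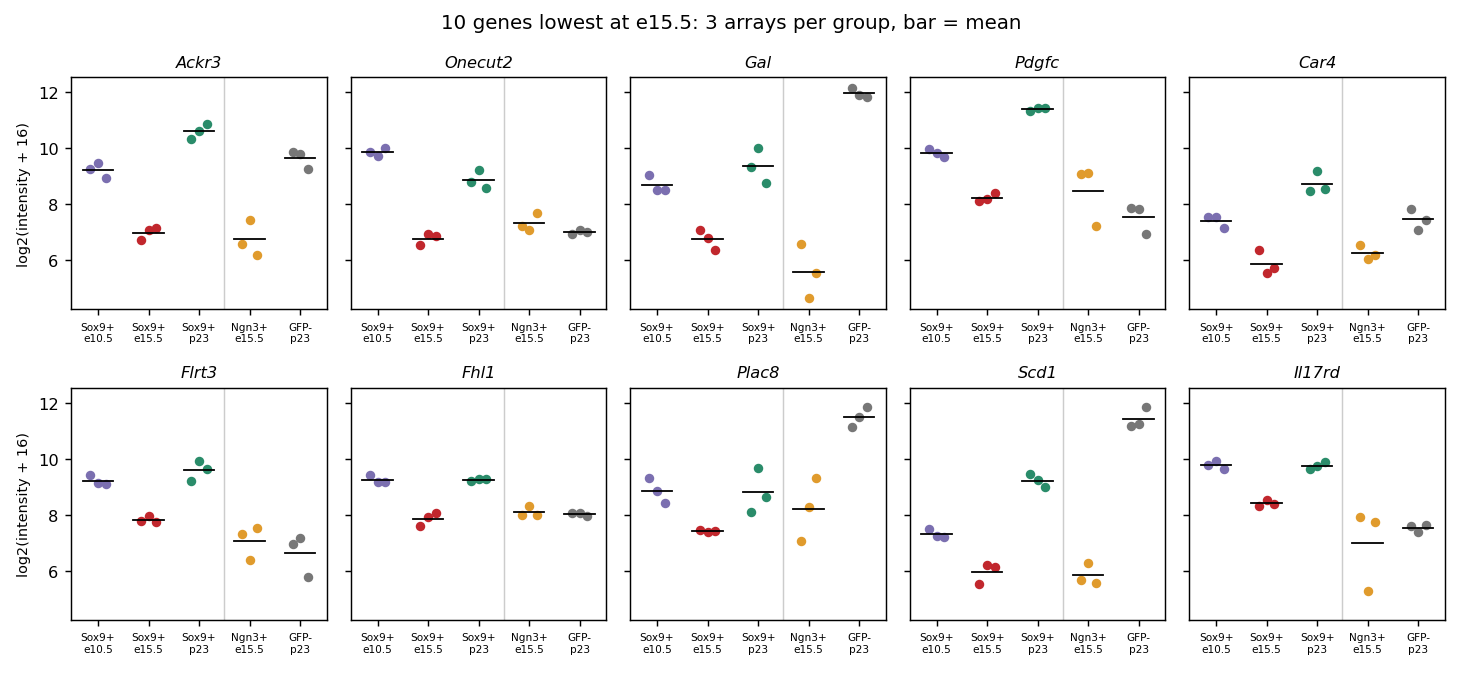
Log2(intensity + 16) of the 10 named genes with the largest distance on the low side, 3 arrays per group with a bar at the mean. The genes were chosen so that the Sox9-GFP+ arrays at e15.5 lie below those of e10.5 and p23. GFP- cells at p23 reached the highest levels for Gal, Plac8 and Scd1.

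Markers of other cell types differed in how often they were highest at e15.5. The share was 14.3% in the neural crest and glia list of 14 and 12.5% in the erythroid list of 8, from 2 genes and 1 gene, against 4.28% of all genes. Of 25 leukocyte and 26 mesenchyme genes 0 were highest and 0 lowest. Their summed intensity at e15.5 was 2770 to 2830 for the leukocyte list (2580 to 3330 at e10.5 and 6250 to 9930 at p23) and 15300 to 18200 for the mesenchyme list (13800 to 15700 and 20500 to 20800). Of 21 endothelial genes 6 were lowest (28.6%, against 10.496% of all genes) and 1 (Egfl7, 0.44) highest. Of 18 gut and stomach genes 6 were lowest (33.3%), Sox2 by -0.65 and Gata5 by -0.56 among them. Vil1 was highest by 0.65, a call lost without array 2 or 3 of e10.5 or e15.5. The part of other cells in the stage patterns was not tested.

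Immediate early and stress genes, which respond to tissue handling, moved with the stage. Their summed intensity was 10800 to 12200 at e10.5, 22000 to 35900 at e15.5 and 91400 to 109000 at p23. Of 28, 16 were higher than at e10.5 (12.2% of all genes), 25 lower than at p23 (30.7%) and 0 highest or lowest. Their part in the other stage differences was not tested.

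Under quantile normalization 0 endothelial and 3 gut genes were lowest, of 396 lowest in all. On leaving out array 2 or 3 of e15.5 or of e10.5, 1 endothelial gene was lowest, of 332 to 484 in all. The gut count fell to 3 without e10.5 array 2 or 3 or e15.5 array 3, and the call of Egfl7 was lost without e10.5 array 2 or 3 or e15.5 array 1. Of 13 liver genes 2 were lowest (15.4%, against 10.496% of all genes), and 0 without e15.5 array 2 or 3. The 2 were Apob (-0.38) and Apoc3 (-0.49). Epb42, a membrane protein of red cells, was highest by 1.73 among 8 erythroid genes, at 8.99, 8.66 and 8.44. The lower 2 values came from the arrays under the detection threshold for Hbb-y. Antigen presentation and defence genes gave 4 lowest of 27 (14.8%), and 2 without array 2 or 3 of e10.5 or of e15.5. Nlrc5 and Ciita, regulators of histocompatibility genes, were among the 4 (-0.71 and -0.39). The chromatin list of 21 Polycomb and DNA methylation genes had 0 highest and 0 lowest members, and the 23 genes of neuronal cytoskeleton and migration 0 and 1 (Crmp1, -0.34, lost on leaving out any 1 of the 9 arrays).

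**Figure D5:**
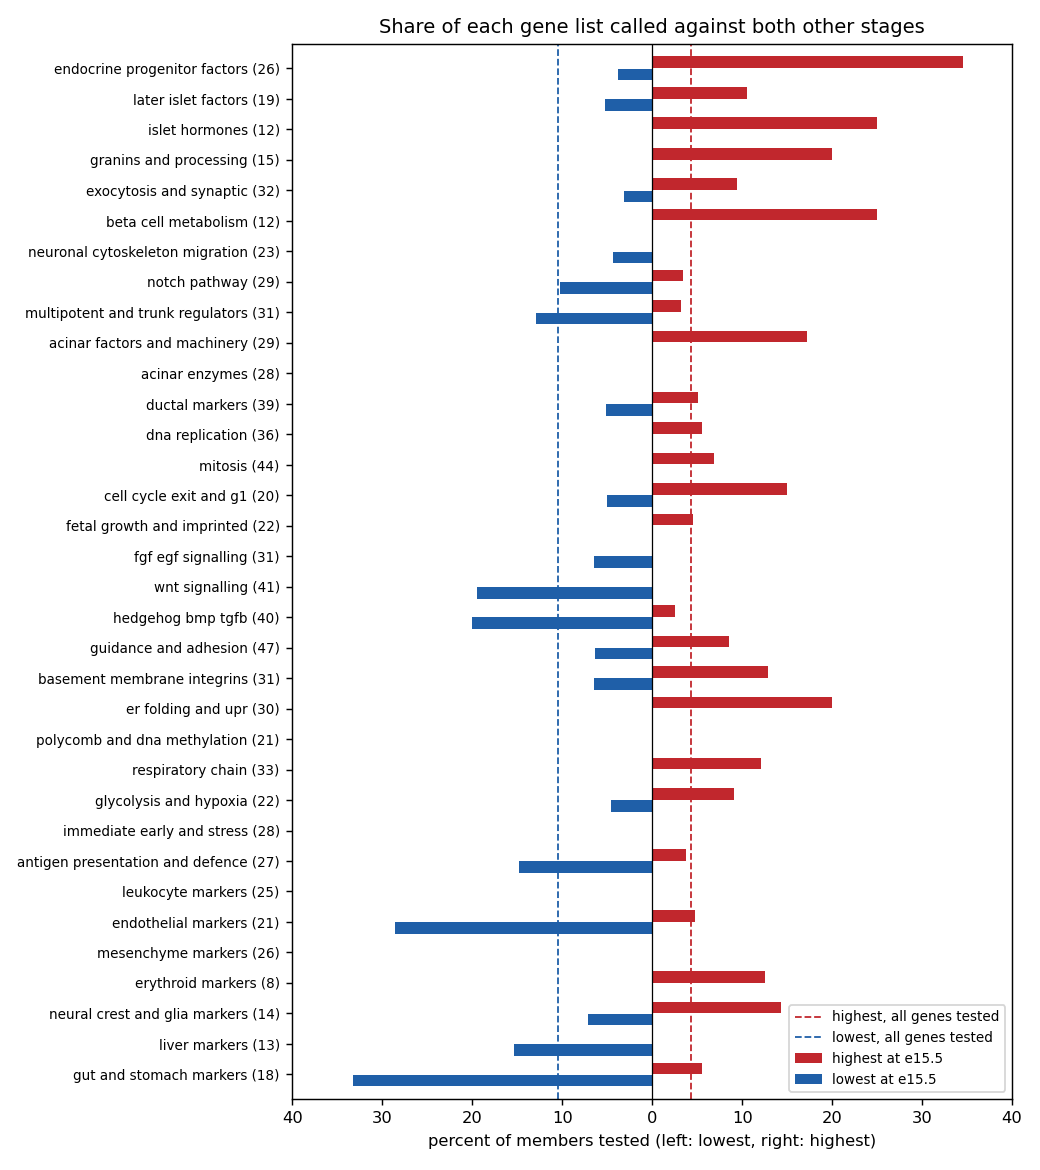
For each of 34 gene lists, the percent of measured members called highest (right, red) or lowest (left, blue) at e15.5 against both other stages, with the number measured in brackets; dashed lines mark the shares over all genes, 4.28% and 10.496%. Endocrine progenitor factors reach 34.6% on the high side and gut and stomach markers 33.3% on the low side.

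The genes with an e15.5 peak were set beside the other sort of the same age. Ngn3-GFP+ cells were called higher than Sox9-GFP+ cells at e15.5 for 23.3% of all genes and lower for 18.4%. Of the 131 genes highest by 2-fold, 66 were lower in Ngn3-GFP+ cells, 21 higher and 44 not called, and of the 29 lowest 5 were lower, 5 higher and 19 not called. Genes of the high side that were lower included Cnmd, Cym, Ctxn2 (-1.58) and Car9, and those that were higher included Sst, Scg2, Iapp, G6pc2 (2.65, adjusted p = 0.000782, limma) and Slc30a8 (2.84, adjusted p = 0.00126, limma). Of all 1772 genes lowest at e15.5, 1534 were higher in Ngn3-GFP+ cells. As these comparisons share the e15.5 Sox9-GFP+ arrays, whose dim values lay lower than those of every other group, the counts are given as a description.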

How the data were processed

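RNA of sorted pancreatic cells was amplified from 20 ng with the NuGEN Ovation system, and 3.75 ug of cDNA went onto each Affymetrix array, per the labels' protocols. The deposited values are PLIER intensities on a linear scale, for which the submitters' processing notes name Affymetrix Expression Console 1.1; any normalization of arrays against each other is not given in sources used here. Of 35557 probe sets, 21789 had a single gene symbol in the platform annotation, 1621 had several and 12147 none, and 21698 were matched by ID to the reference gene table. A gene was represented by the one-gene probe set whose mean over all 15 arrays was largest (19938 genes, 999 with several probe sets), and 16882 genes above an intensity of 97.8 (the 30th percentile) on at least 3 arrays were tested.

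Values were taken as log2(intensity + 16) and fitted with limma 3.58.1 in R 4.3.3 (lmFit and eBayes, all 15 arrays, group means, 10 residual degrees of freedom), with Benjamini-Hochberg adjustment over all genes within each contrast. The number of arrays limits the precision. Named genes are Sox9 and Neurog3, the 10 genes highest and the 10 lowest at e15.5 with the largest distance, no overlap with either other stage, a highest stage mean above the table median and no clone or predicted name, up to 5 members per list in each direction, and members a sentence turns on. The members and the 34 lists were chosen with earlier results of these data known. The procedure was tested on simulated data. Alternatives were other offsets, scalings, filters, probe set rules and variance models, array weights, a 1.5-fold threshold, a replicate block and leaving out arrays. Figures and promoter motifs used Python 3.11.15, pandas 2.3.3, numpy 2.4.6 and matplotlib 3.10.9.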

Additional observations from a re-analysis of the deposited data

How the results depend on the processing

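Sox9, Neurog3, the named genes with the largest distances and the called list members, 125 genes in all, were followed through the alternatives. None of them reversed its direction in any alternative that tested it. Other genes named in the text, such as Neurod1, Insm1 and Gcg, were not followed. The counts of all called genes, and whether higher or lower calls were more numerous, depended on how arrays were scaled. Quantile normalization gave 4845 genes against the mean of the other stages, 477 highest, 396 lowest, 118 highest by 2-fold (110 of them shared with the 131), 15 lowest by 2-fold and 4055 in the comparison with Ngn3-GFP+ cells. Centring arrays on their median over all probe sets, added after the data were seen, shifted the median of all genes by 0.16 and gave 1129 highest, 505 lowest, 204 highest and 15 lowest by 2-fold. The share of higher calls against the mean of the other stages was 43.9%, but 54.5% after quantile normalization, 66% after that centring, 58.9% with a filter at the median and 68.7% with the 1.5-fold threshold. In the comparison with Ngn3-GFP+ cells it was 56%, but 42.2%, 28.2%, 40.7% and 13.5% in the same order. Highest genes were 29% of the highest and lowest genes together, but 54.6%, 69.1%, 43.9% and 89.4% in that order. The filter at the median left 835 lowest genes, array weights gave 1342 highest and 2828 lowest, and an offset of 64 gave 13 lowest by 2-fold. Testing against 1.5-fold gave 422, 59 highest, 7 lowest and, for Ngn3-GFP+ cells, 178, with the same 59 and 7 for the 2-fold genes. Without the globin-positive arrays 411 were highest and 1059 lowest.

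Leaving out each array in turn gave 4851 to 8691 genes against the mean of the other stages, 319 to 859 highest, 332 to 2680 lowest, 106 to 148 and 22 to 29 by 2-fold, and 3762 to 6843 for Ngn3-GFP+ cells. The lowest Ngn3-GFP+ counts came without Sox9-GFP+ e15.5 array 3 (3762) or array 2 (4645). Of these 125 genes, all but Sox9 were called. Counting Sox9, which stayed uncalled, 78 kept their status under quantile normalization and 94 under the added centring. Under the 1.5-fold threshold 24 did, and 71 to 117 without any 1 Sox9-GFP+ array. The causes of these shifts were not tested. Same-numbered Sox9-GFP+ arrays of different stages did not deviate together (9 pairs, r from -0.49 to 0.20, 2 of them above 0.1). Some differently numbered ones did, such as e10.5 array 1 with p23 array 3 (r = 0.48). Same-numbered GFP+ and GFP- arrays at p23 gave r of 0.11, -0.12 and -0.03. With 3 arrays per group, these values cannot settle whether the numbers pair the samples. With the replicate block 1156 genes were lowest, 577 highest, 127 and 27 by 2-fold, 7412 against the mean and 6252 for Ngn3-GFP+ cells.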

Other observations

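Some further genes peaked at e15.5 outside the named lists. They were chosen after their values were seen, so no test is attached to the choice. Genes linked to cartilage, some of them better known from other tissues, such as S100b, did not all share one stage pattern. Among 34 such genes gathered after Cnmd was seen, 27 were measured, of which 8 were highest at e15.5, Cnmd and S100b among them, and 1 was lowest. As the set was gathered because of Cnmd, these counts are not set against the shares over all genes, 4.28% and 10.496%. Chrdl1, a BMP antagonist, had stage means of 7.43, 9.54 and 7.60 at e10.5, e15.5 and p23, Mia (melanoma inhibitory activity) 10.14, 12.15 and 10.75, Acan (aggrecan) 6.85, 8.26 and 6.66, and Sulf1, a sulfatase of heparan sulfate, 7.26, 8.95 and 7.46, as log2 values with n = 3 arrays per stage. The cartilage collagens did not follow. Col2a1 had means of 8.57, 8.25 and 8.38, and neither it nor Col9a1, whose e15.5 mean was 8.16, was called highest or lowest.

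Other genes highest by 2-fold included the angiotensin receptor Agtr2 (distance 2.43), the adhesion molecule Cntn1 (2.297), Hif3a, a regulator of the hypoxia response (1.86), the vitamin D receptor Vdr (1.80), the activin-like receptor Acvr1c (1.70), the Nodal and BMP antagonist Cer1 (1.70), the glutathione peroxidase Gpx2 (1.61) and Aldh1b1, an aldehyde dehydrogenase of pancreatic progenitors (1.31). Among the genes lowest by 2-fold were the nuclear receptors Nr2f2 (-1.29) and Rarb (-1.12).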
